A study of Mus musculus with 11 samples.

Results

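The Frizzled receptors are a family of 10 mouse genes, Fzd1 to Fzd10, and all 10 have a window in the promoter table, out of 21881 windows in all. They were selected by gene name, as a family chosen by the read counts of Fzd1 and Fzd2, which stand among the highest windows of the same table. Those counts, and the contrast of this pair with its paralogs, are therefore given as a description and were not tested. The table holds raw reads of chromatin immunoprecipitated (ChIP) with an antibody to the HA tag, in 1 ST18 column, and of genomic DNA, in 1 input column. The cells are cultured ones that the labels call TN, a name they do not spell out. No genotype, strain or treatment is labelled for these cells, apart from the embryo protocols that the labels repeat for every sample. A label of the input sample also names the HA ChIP, while its title calls it input, and the ratios here follow the title. The labels list 2 ST18 ChIP samples and 1 input sample, and how the ST18 column was made from them is not stated, so no value here has a replicate check. The ST18 knockdown and control RNA samples of the series, 4 of each, were not analysed here.

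Frizzled proteins are receptors with a cysteine-rich extracellular domain that binds Wnt ligands and a bundle of membrane helices that passes the signal to Dishevelled inside the cell. With the co-receptors Lrp5 and Lrp6 they stabilise β-catenin, and with other partners they orient cells in the plane of a tissue. In the embryonic cortex, Wnt signals received by Frizzleds act on the renewal and differentiation of progenitors and on the growth of axons. By protein sequence, Fzd1, Fzd2 and Fzd7 form 1 subfamily, Fzd5 and Fzd8 another, Fzd3 and Fzd6 another, while Fzd9 and Fzd10 are close to each other and Fzd4 stands nearer to them. ST18 belongs with MYT1 and MYT1L to a family of zinc finger proteins that bind DNA at sites with the core AAGTT.

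The bases before the start of Frizzled genes were also examined, but whether they lie within the counted windows is not known. RefSeq promoters of the GRCm38.p6 build were matched by symbol for 6 of the 10 genes, Fzd1, Fzd4, Fzd5, Fzd7, Fzd9 and Fzd10. Those of 3 genes are printed from their first base, 250 bases before the start, to the last base before it: Fzd1, which carries the high counts, Fzd7, its subfamily paralog without them, and Fzd10, which alone among the 6 holds the longer form AAAGTTT of the MYT1 family site. They lie at chr5:4758217-4758466 on the minus strand (Fzd1), chr1:59481897-59482146 on the plus strand (Fzd7) and chr5:128600856-128601105 on the plus strand (Fzd10). Capitals mark every match, on either strand, to the core AAGTT, its longer form AAAGTTT (which contains the core), the GC box GGGCGG, the CCAAT box or the TATA box TATAAA.

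Fzd1: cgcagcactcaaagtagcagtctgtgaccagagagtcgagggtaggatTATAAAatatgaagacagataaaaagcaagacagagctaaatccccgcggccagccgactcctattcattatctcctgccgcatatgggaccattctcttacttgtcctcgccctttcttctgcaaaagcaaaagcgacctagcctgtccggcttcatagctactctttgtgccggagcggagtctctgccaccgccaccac
Fzd7: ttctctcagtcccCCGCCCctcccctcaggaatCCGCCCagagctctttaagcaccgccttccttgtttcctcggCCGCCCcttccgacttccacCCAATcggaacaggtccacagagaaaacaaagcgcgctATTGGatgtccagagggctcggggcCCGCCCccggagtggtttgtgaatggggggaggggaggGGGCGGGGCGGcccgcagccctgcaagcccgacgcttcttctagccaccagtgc
Fzd10: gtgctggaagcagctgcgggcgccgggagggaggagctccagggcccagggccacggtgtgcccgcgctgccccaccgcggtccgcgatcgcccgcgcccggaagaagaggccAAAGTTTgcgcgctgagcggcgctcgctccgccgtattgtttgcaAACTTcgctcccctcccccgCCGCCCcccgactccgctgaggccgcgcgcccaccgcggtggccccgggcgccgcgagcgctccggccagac

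The Fzd1 sequence held 1 match, TATAAA, whose first base lay at position -202 counted back from the start. The Fzd7 sequence held 6 GC boxes and 2 CCAAT boxes. The Fzd10 sequence held AAAGTTT from position -137 to -131, a second AAGTT on the opposite strand from -92 to -88, and 1 GC box. These matches are letters only, and the count windows are 1000 bp wide with a position around the start that the sources used here do not state.

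The ST18 reads separated 2 of the 10 windows from the other 8. Fzd1, a receptor that can signal through β-catenin, held 106 ST18 reads and 11 input reads. Fzd2, known for Wnt5a signalling as well as for the β-catenin branch, held 89 ST18 and 8 input reads. Fzd7, the third member of this subfamily and a receptor of stem and progenitor cells, held 23 ST18 and 10 input reads. In ST18 reads Fzd1 and Fzd2 lay far above Fzd7, while in input reads the 3 genes lay within 3 reads of each other.

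In the subfamily of Fzd5 and Fzd8, receptors known from the eye and the forebrain, Fzd5 held 17 ST18 and 6 input reads. Fzd8 held 33 ST18 and the same 6 input reads, the highest ST18 count among the 8 paralogs. Fzd3 and Fzd6, which act in planar cell polarity and, for Fzd3, in the guidance of axon tracts, held 18 and 19 ST18 reads with 7 input reads each. The windows of Fzd3 and Fzd6 differed by 1 ST18 read.

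Fzd4, the receptor for Norrin in the vessels of the retina, held 14 ST18 and 10 input reads. Fzd9, a gene of the region deleted in Williams syndrome, held 11 ST18 and 7 input reads, the lowest ST18 count of the family. Fzd10 held 28 ST18 and 10 input reads. The 8 paralogs thus ranged from 11 to 33 ST18 reads, with a median of 18.5, all below the pair. Of all windows, 99.94% also held fewer ST18 reads than either, and the pair was chosen for its high counts.

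**Figure D1:**
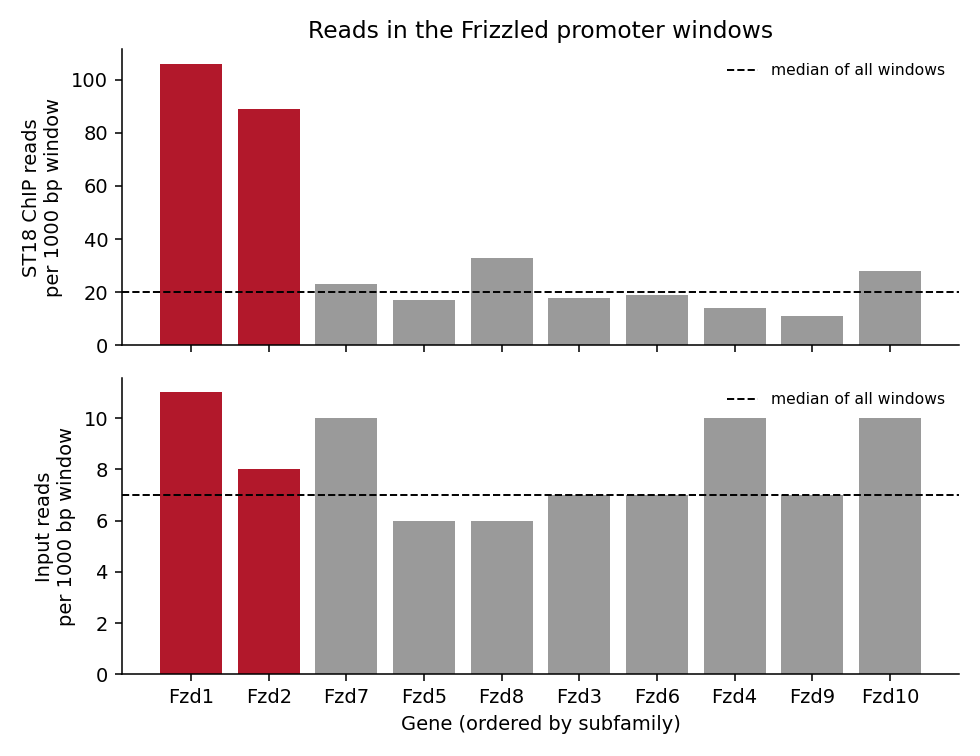
Reads per 1000 bp promoter window for each Frizzled gene, ST18 ChIP above and input below, with Fzd1 and Fzd2 in red and the median of all windows as a dashed line (20 ST18 and 7 input reads). Fzd1 and Fzd2 stand at 106 and 89 ST18 reads against 11 to 33 in the other windows, while input reads run from 6 to 11.

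The difference lay in the ST18 column. The median window of the table held 20 ST18 and 7 input reads. Fzd1 held 5.30 times the median ST18 count and 1.57 times the median input count, and Fzd2 held 4.45 and 1.14 times. By ST18 reads alone Fzd1 ranked at place 9 and Fzd2 at place 12 of 21881, whereas 82.1% and 53.7% of windows had fewer input reads than they did. Against the 8 paralogs, the mean of the pair was 4.79 times higher in ST18 reads and 1.21 times higher in input reads. The high ratios of Fzd1 and Fzd2 therefore did not come with low input counts.

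Windows with exactly the same input count place each member on a common footing. Among the 1299 other windows with 11 input reads, the median was 23 ST18 reads, the 95th percentile 36 and the maximum 82, so none reached the 106 of Fzd1. Among the 2353 others with 8 input reads the maximum was 56, and none reached the 89 of Fzd2. Both outcomes were largely fixed by the choice of the pair for its high counts. Fzd7 was ordinary among windows of its input count: of the 1705 others with 10 input reads, 50.4% held fewer ST18 reads than its 23. Fzd10, with the same input count, lay above 73.7% of them, and Fzd4 above 10.5%.

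Fzd8 lay higher than the remaining paralogs. Of the 2449 other windows with 6 input reads, 173 held at least its 33 ST18 reads, and 92.9% held fewer. Fzd5, with the same input count, lay above 32.8% of them. Fzd3, Fzd6 and Fzd9 lay above 31.7%, 37.0% and 6.97% of the 2454 others with 7 input reads.

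**Figure D2:**
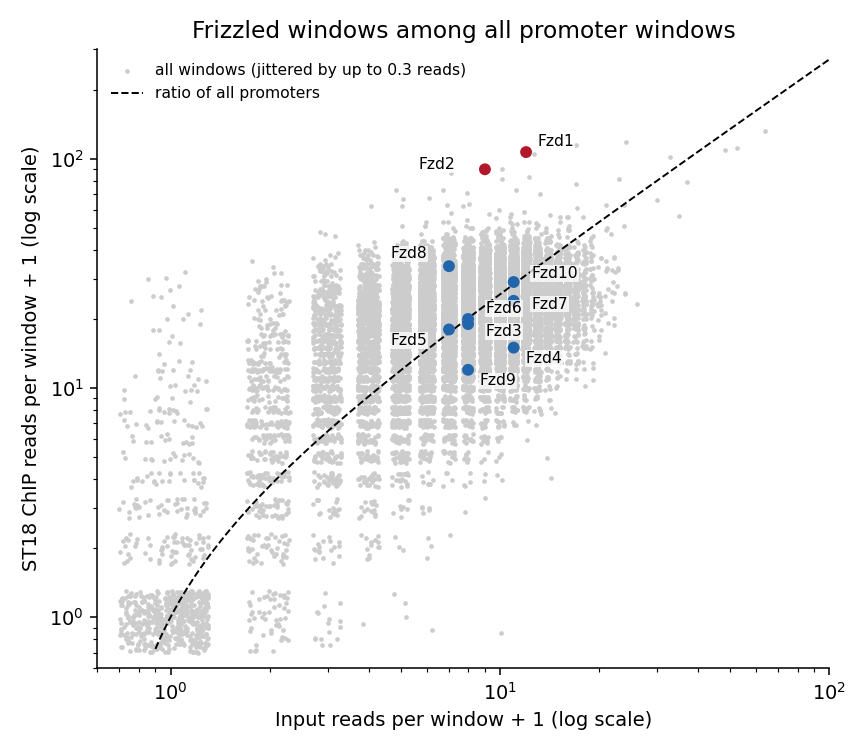
ST18 against input reads per window, each plus 1 on log axes, for all 21881 windows (grey, jittered; 2 windows with more reads lie outside the axes), Fzd1 and Fzd2 (red) and the other 8 Frizzled genes (blue). The dashed line is the ST18 to input ratio of all promoters; Fzd1 (106 against 11 reads) and Fzd2 (89 against 8) lie above the cloud, and the 8 paralogs lie inside it.

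To set each window against the table, its ST18 to input ratio was divided by the ratio of all promoters, 438960 to 160443 reads or 2.74. This fold carries an exact (Clopper-Pearson) 95% interval for counting error only, since no replicate shows the variation between libraries. Without molecular identifiers a read cannot be equated with a molecule, and the interval does not allow for this. Fzd1 stood at 3.52-fold (1.89 to 7.27) and Fzd2 at 4.07-fold (1.98 to 9.71). These folds are raised by the choice of the pair on the same counts, which the intervals do not correct.

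The paralogs lay around the ratio of all promoters. Fzd8 stood at 2.01-fold (0.832 to 5.87), Fzd5 at 1.04-fold (0.390 to 3.21) and Fzd10 at 1.02-fold (0.483 to 2.36). Fzd6 stood at 0.992-fold (0.399 to 2.79), Fzd3 at 0.94-fold (0.375 to 2.66) and Fzd7 at 0.841-fold (0.385 to 1.98). Fzd9 stood at 0.574-fold (0.203 to 1.75) and Fzd4 at 0.512-fold (0.211 to 1.29).

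All 8 of these intervals included 1, so neither an excess nor a deficit of ST18 reads was detectable at this depth in any of the 8 windows. For 7 of the 8 the upper limit, 1.29 to 3.21, lay below the 3.52-fold of Fzd1, and for Fzd8, at 5.87, it did not. That fold is raised by the choice and has its own interval. Only the upper limits of Fzd4 (1.29) and Fzd9 (1.75) lay below the lower limit of Fzd1, 1.89. Between the 7 pairs of neighbours in this order the factors were at most 1.94, and all 7 of their intervals included 1.

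**Figure D3:**
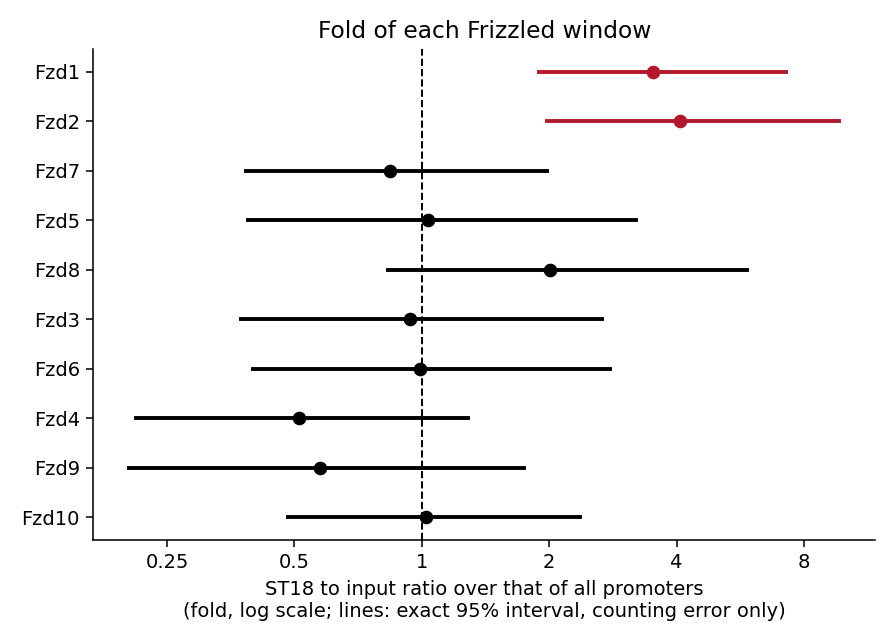
Fold of the ST18 to input ratio of each Frizzled window over that of all promoters (log axis), with its exact 95% interval for counting error, ordered by subfamily. The intervals of Fzd1 (1.89 to 7.27) and Fzd2 (1.98 to 9.71) lie above 1, and those of the other 8 windows include it.

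The authors' own enrichment column also put Fzd1 and Fzd2 first in the family, but in the reverse order of their folds. It is the log2 of the scaled ST18 count over the input count with 16 added to each, so it understates the change in windows with few reads. Fzd1 stood at 1.13 (place 3 of 21881) and Fzd2 at 1.12 (place 4), followed by Fzd8 at 0.42 (place 1105). The other 7 ranged from 0.07 for Fzd10 to -0.26 for Fzd4. The median of the 10 members, 0.05, was close to the 0.04 of all windows, and 6 of the 10 lay above the latter.

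At a log2 enrichment of at least 1 the table called 0.0548% of all windows, and 2 of the 10 Frizzled windows were called, Fzd1 and Fzd2. At a log2 enrichment of at least 0.58 it called 1.15% of all windows, and the same 2 members. An exact interval of the fold wholly above 1 was held by 2.37% of windows and by the same 2 members, and one wholly below 1 by 3.24% of windows and by 0 of the 10. Since the family was chosen on these counts, nothing is read from the members' share. A paralog would have needed between 69.0 and 88.8 ST18 reads at its input count to reach a log2 enrichment of 1, far above the 33 reads of Fzd8.

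Summed over the family, 358 ST18 and 82 input reads gave 1.60-fold (1.25 to 2.05) over all promoters, and this excess rested on the pair. Fzd1 and Fzd2 together held 195 ST18 and 19 input reads, 3.75-fold (2.34 to 6.37). The other 8 windows held 163 and 63 reads, 0.946-fold (0.703 to 1.29). The ratio of the pair was 3.97 times that of the 8 paralogs (Fisher's conditional exact 95% interval 2.23 to 7.30).

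Against single paralogs, the ratio of the pair was higher by 1.87 times for Fzd8 (0.566 to 5.32) up to 7.33 times for Fzd4 (2.52 to 20.4). The interval lay above 1 for 7 of the 8 paralogs, the exception being Fzd8. These limits, and those against the 8 paralogs together, are descriptive and were not adjusted for the number of contrasts. That the pair exceeded its paralogs was largely fixed by its choice for high counts.

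Within the subfamily of the pair, the ratio of Fzd1 was 4.19 times (1.398 to 12.2) and that of Fzd2 4.84 times (1.504 to 15.7) the ratio of Fzd7. Between Fzd1 and Fzd2 the factor was 0.866 (0.289 to 2.48), so they could not be told apart. Summed over its 3 members, this subfamily held 218 ST18 and 29 input reads, 2.75-fold (1.86 to 4.2) over all promoters. That was the highest fold of the groups, and it includes the pair, which was chosen for its high counts. Membership did not go with a high count in every member, since Fzd7 held 23 ST18 reads. The fold of Fzd7, 0.841 (0.385 to 1.98), could not be told apart from the ratio of all promoters. The other groups gave 1.52-fold (0.800 to 3.14) for Fzd5 with Fzd8, 0.966-fold (0.510 to 1.93) for Fzd3 with Fzd6 and 0.839-fold (0.463 to 1.58) for Fzd9 with Fzd10.

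Fzd8 was the paralog nearest to the pair, and its place is not settled by these reads. Its ratio was 2.41 times that of the other 7 paralogs together (0.925 to 7.41) and 1.94 times that of Fzd5 (0.440 to 8.43). Fzd1 exceeded Fzd8 by 1.75 times (0.491 to 5.64) and Fzd2 by 2.02 times (0.533 to 7.19). All 4 of these intervals included 1.

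The windows most like the pair were sought by the Euclidean distance in log2 of the scaled ST18 count and of the input count, each plus 16, over these 2 columns. The nearest to Fzd1 were Hspa8, the constitutive Hsp70 chaperone (104 against 12 reads, distance 0.056), Ctdsp2, a phosphatase of the RNA polymerase II tail (89 against 9, distance 0.21), and Fzd2 itself (distance 0.25). The nearest to Fzd2 were Ctdsp2 (distance 0.059), the Hsp70 co-chaperone St13 (80 against 9, distance 0.12) and the Hsp110 chaperone Hsph1 (86 against 6, distance 0.13). Fzd7, in contrast, shared its exact counts of 23 and 10 reads with 71 other named windows, the first in alphabetical order being AY074887, Adam21 and Atad5.

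Neighbouring promoters held fewer ST18 reads than Fzd1 and Fzd2, as did 99.94% of all windows. This difference was largely fixed by the choice of the pair. Neighbours were taken as the nearest protein-coding gene with a window on each side in the RefSeq order of GRCm38.p6, which is not the mm9 build of the submitters' processing notes. Beside Fzd1, Cyp51, an enzyme of sterol synthesis, held 32 ST18 and 6 input reads, and the kinase gene Cdk14 held 12 and 1. With 1 input read, the fold of Cdk14 was 4.39 (0.649 to 187.5), an interval that includes both 1 and the folds of Fzd1 and Fzd2. Beside Fzd2, Gpatch8 held 23 and 8 reads and Ccdc43 37 and 7. All 4 intervals of the fold included 1, and those of Cyp51 (0.804 to 5.70) and Ccdc43 (0.850 to 5.14) also reached the 3.52-fold of Fzd1.

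Over the neighbours of the whole family, 20 windows held 7 to 37 ST18 reads and log2 enrichments of -0.46 to 0.63, with a median of 0.12. The interval lay above 1 for 1 of them, Fkbp6 beside Fzd9 (33 against 3 reads). It lay below 1 for 2, Plekhm3 beside Fzd5 (7 against 10) and Tmem132d beside Fzd10 (19 against 15). Of all windows, 2.37% had an interval above 1 and 3.24% one below 1, and nothing is read from these few neighbours. The neighbours were named after their values were seen.

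Base composition, which the choice did not use, differed between the Fzd1 promoter and those of the 5 paralogs with a sequence. This rests on 1 of the 2 high windows, since the Fzd2 and Fzd8 promoters were not examined. In the 300 bases from 250 before to 50 after the start, Fzd1 held 54.0% G and C, more than 53.4% of the 32851 promoters of the RefSeq table. The 5 paralogs with a sequence held 66.7% (Fzd7), 72.7% (Fzd4), 75.7% (Fzd5), 77.7% (Fzd10) and 78.0% (Fzd9), above 85.0% to 98.1% of all promoters. The Fzd1 sequence held 16 CpG dinucleotides, 0.754 times the number its base counts give, and the others 24 to 53, the highest in Fzd9 at 1.18 times. By this ratio Fzd1 was not set apart, since it lay between Fzd7 (0.727) and Fzd4 (0.810). It lay above 75.4% of all promoters.

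GC boxes did not follow base composition. No GGGCGG lay in the 300 bases of Fzd1, against 1 each in Fzd9 and Fzd10, 7 in Fzd7, 8 in Fzd4 and 10 in Fzd5, and 35.7% of all promoters held at least 1. Fzd9 and Fzd10, the richest in G and C, were thus nearer to Fzd1 than to the other 3 in this count. CCAAT lay in Fzd4, Fzd5 and Fzd7 (37.4% of all promoters), and TATAAA in Fzd1 alone of the 6 (13.6%). AAGTT lay in Fzd5 and Fzd10 (39.3% of all promoters) and AAAGTTT in Fzd10 (4.74%). No match to AAGTT lay in these 300 bases of Fzd1, which says only that these letters are not in them.

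Across the table, promoters richer in G and C had slightly higher ratios. Fzd1 is the poorest in G and C of the 6. Among 12270 genes with 1 promoter sequence and a count window, the ST18 to input ratio was 2.33 in promoters under 40% G and C, 2.73 between 50% and 60% and 2.88 over 70%. Across these genes the rank correlation of G and C content was 0.134 with log2 enrichment, 0.39 with ST18 reads and 0.26 with input reads. The genes share the same ST18 and input columns and are not independent replicates. In the class of Fzd1, 50% to 60%, the median log2 enrichment was 0.05 over 3816 genes, and in the class over 70%, which holds Fzd4, Fzd5, Fzd9 and Fzd10, it was 0.07 over 1446. At a log2 enrichment of at least 1, the class of Fzd1 held 3 genes, Fzd1 included, the class over 70% held 1 and each other class 0. Over the 6 Frizzled promoters the rank correlation of G and C content with log2 enrichment was -0.314, a value that rests on few points. Genes with AAAGTTT in these 300 bases had a median log2 enrichment of 0.03 (n = 546) and those without it 0.04 (n = 11724). With and without a match, the medians were 0.03 and 0.05 for AAGTT, 0.03 and 0.05 for CCAAT, and 0.02 and 0.04 for TATAAA. For GGGCGG they were 0.06 (n = 5920) and 0.02 (n = 6350), and genes with it were richer in G and C (median 64% against 49%). Genes with any of the other motifs were poorer in G and C than genes without it. Their median was 48.7% against 57.3% for AAAGTTT and 51.3% against 60% for AAGTT. It was 55.3% against 58% for CCAAT and 44.3% against 58.3% for TATAAA. The log2 medians were not adjusted for base composition. The part of base composition in the counts of Fzd1 was not tested.

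**Figure D4:**
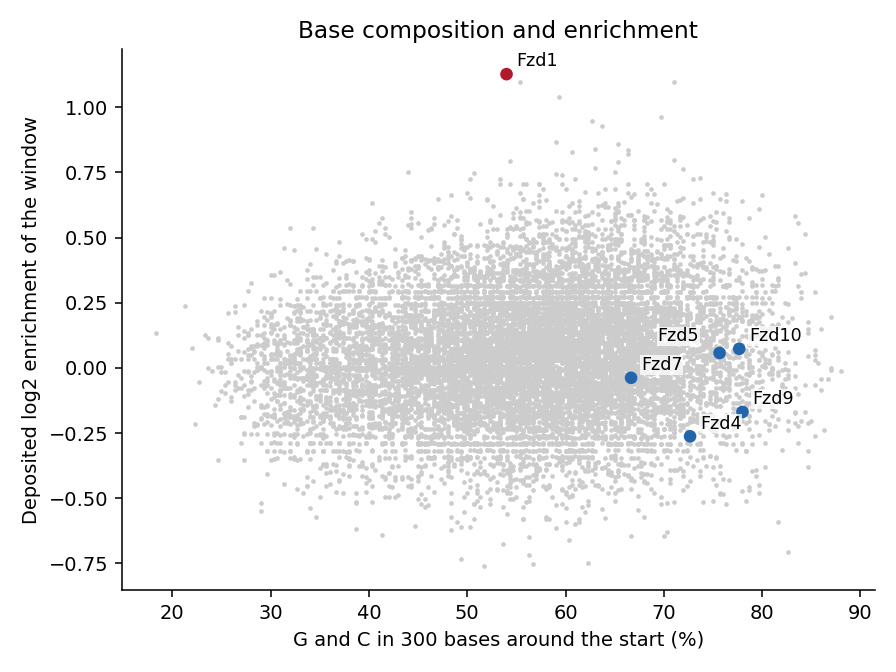
Deposited log2 enrichment of the promoter window against the percentage of G and C in the 300 bases around the RefSeq start, for 12270 genes (grey), Fzd1 (red) and the 5 other Frizzled genes with a sequence (blue). Fzd1 lies at 54.0% and 1.13, and its paralogs lie between 66.7% and 78.0% with values from -0.26 to 0.07.

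Other genes of the Wnt pathway held fewer ST18 reads than Fzd1 and Fzd2, as did 99.94% of all windows. In 7 lists with 84 genes in all, every one of which had a window, 0 reached a log2 enrichment of 1 (0.0548% of all windows) and 1 reached 0.58 (1.15%). The interval of the fold lay above 1 for 3 of the 84 and below 1 for 3, against 2.37% and 3.24% of all windows. The summed ratio of the 84 windows was 0.998-fold that of all promoters (0.914 to 1.09), and their highest ST18 count was 47, against 89 and 106 in the pair.

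The nearest relatives by structure carry the same cysteine-rich domain, among them the Frizzled-like receptor Smo, the secreted Sfrp decoys and the Ror kinases. Their 12 windows had a median log2 enrichment of 0.17, from Sfrp4 at 0.42 (30 against 5 reads) to the carboxypeptidase gene Cpz at -0.50 (20 against 18), and 0 reached 0.58. Of the 19 Wnt ligands (median 0.07), Wnt5a was the highest at 0.61 (32 against 3 reads, 3.90-fold, 1.22 to 19.9) and Wnt7a the lowest at -0.26 (8 against 7). The fold of Wnt5a thus lay between those of Fzd1 and Fzd2, with a wider interval from 3 input reads. The 13 co-receptors and regulators of receptor turnover (median 0.02) ran from Rspo3, an R-spondin that keeps Frizzleds at the surface, at 0.37 (21 against 3) to Rspo4 at -0.25 (27 against 16).

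Secreted inhibitors (8 windows, median 0.04) ran from Notum, which removes the lipid of Wnts, at 0.19 (28 against 8) to Dkk3 at -0.32 (12 against 10). Among 12 cytoplasmic transducers (median 0.09), Dvl1, a Dishevelled that binds Frizzleds, was highest at 0.55 (47 against 8 reads, 2.15-fold, 1.005 to 5.26) and the ubiquitin ligase subunit Btrc lowest at -0.21 (16 against 10). Planar cell polarity genes (8 windows, median -0.07) ran from Vangl2 at 0.51 (31 against 4 reads, 2.83-fold, 1.001 to 11.1) to Prickle1 at -0.32 (10 against 9).

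Nuclear effectors (12 windows, median 0.01) ran from the transcription factor gene Tcf7 at 0.27 (35 against 9) to the corepressor gene Tle2 at -0.46 (18 against 16). The 7 list medians ran from -0.07 to 0.17, around the 0.04 of all windows.

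**Figure D5:**
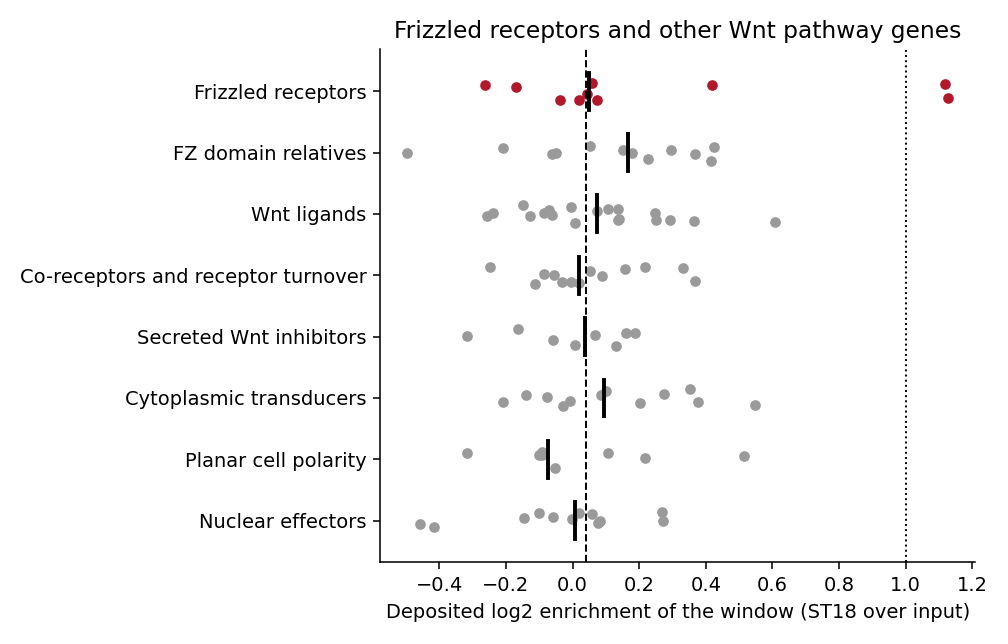
Deposited log2 enrichment of the promoter windows of the 10 Frizzled genes (red) and of 84 other Wnt pathway genes in 7 lists (grey), 1 point per gene, with the median of each list as a black bar, the median of all windows as a dashed line (0.04) and a log2 enrichment of 1 as a dotted line. Fzd1 at 1.13 and Fzd2 at 1.12 are the points beyond the dotted line, and the highest of the others is Wnt5a at 0.61.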

How the data were processed

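The deposited promoter table gives read counts per 1000 bp window in 1 ST18 and 1 input column, as whole numbers, per the file headers. The authors' log2 enrichment was recomputed: with the ST18 count scaled by 0.4055 and a pseudocount of 16 on both sides, all 21881 deposited log2 values were matched within 1e-06. Which aligner and counter made this table is not given here. The build mm9 and the tools Bowtie, MACS2 2.0.10.20120913, TopHat2 2.0.8, edgeR and HTSeq 0.5.4p1 stand in the submitters' processing notes, without their roles.

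Windows were taken by symbol. Folds, Clopper-Pearson intervals and Fisher's conditional limits were computed with Python 3.11.15 and scipy 1.17.1, and the interval code was checked on simulated data. No value was tested. The genes named were the 10 members, the highest, the lowest and any member past 0.58 of each list, and the 3 windows nearest to Fzd1, Fzd2 and Fzd7. The nearest windows leave out predicted genes and microRNAs. The neighbouring genes were named outside this rule, after the values were seen. The members and lists were chosen with earlier results of these data known. The peak list was not used, because no gene coordinates of its build were at hand. Protein sequences were not compared.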

Additional observations from a re-analysis of the deposited data

How the results depend on the processing

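Of 28 alternatives to 5 results, 26 left the value within its interval or, for the number of windows, within 1.5 times. All reuse the same counts, and the intervals are wide, so this number says little about robustness. The 2 Frizzled windows past log2 1 became 0 at a threshold of 1.5, which 0 windows of the table reached. They remained 2 at 0.58 (252 windows of the table, against 12 at log2 1), with scaling to the promoter totals (6 windows; Fzd1 1.02, Fzd2 1.02), with a pseudocount of 8 (115 windows) and with over 5 input reads (7 of 15043 windows). They became 3 with a pseudocount of 1, when Fzd8 joined at 1.04 and 2093 windows passed. The 3.97 times of the pair over its paralogs became 2.14 with a pseudocount of 16, which pulls ratios of low counts towards 1. It ranged from 3.65 (without Fzd4) to 4.50 (without Fzd8) as each paralog was left out, and was 4.46 with Fzd7 alone. The fold of Fzd1 ranged from 2.18 to 4.35, that of Fzd2 from 2.17 to 4.51 and that of Fzd7 from 0.805 to 0.974. Limits are the depth of 6 to 11 input reads per window, the lack of replicates, the choice of the pair on the same counts and the unstated window position. Fits without each ChIP replicate were not run, and peaks near the genes were not examined. No paired analysis was possible because the ST18 column carries no replicate number.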
